A study of Mus musculus with 6 samples.

Results

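The subunits of the slow and rapid delayed rectifier potassium channels were represented by 6 genes, Kcne1, Kcne2, Kcne3, Kcne4, Kcnq1 and Kcnh2, among 18193 genes named on the array. They were chosen by name, with the differences of Kcne1 and Kcnq1 in this same comparison already known, so the differences of the 6 genes are given as a description and no p-value is attached to them. Every probe set annotated with 1 of these symbols was taken, which gave 7 probe sets among 45037 that are not controls. Kcne1 had 2 and the other 5 genes had 1 each. In hearts with Cre the signal of Kcne1 was 19.3-fold that of hearts without Cre on its brighter probe set. Its dimmer probe set was higher by 3.12 on the log2 scale. In hearts without Cre that probe set lay below the level of the filter on dim probe sets given further on, so no fold is given for it. Kcnq1 was 1.62-fold, and the other 4 genes differed by less than 0.4 on the log2 scale.

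RNA came from the apex of the heart of male mice aged 6 to 7 weeks, with 1 heart and 1 Affymetrix array per mouse. In 3 hearts, called alpha MHC Cre (aMHC_Cre in the figures), the genotype was Fog2 flox/delta with a Cre transgene under the α-myosin heavy chain promoter, which is active in cardiomyocytes. In the other 3 hearts, called no Cre, the genotype was Fog2 flox/delta without Cre. Both groups thus carried 1 floxed and 1 deleted allele of Fog2 (Zfpm2), which encodes a cofactor of GATA transcription factors, and the no Cre hearts were not wild type. No group had Cre without a floxed allele, so an effect of Cre itself and an effect of the deletion cannot be told apart. Values are log2 signals of probe sets, and differences are alpha MHC Cre minus no Cre. A level on one probe set cannot be set against a level on another.

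Delayed rectifier channels open slowly when a heart cell is depolarised and let potassium leave, which helps to end the action potential. Kcnq1 forms the pore of the slow current and Kcnh2, the mouse counterpart of HERG, that of the rapid current. The Kcne genes encode small single-pass membrane proteins that join such pores and change how they open: Kcne1 (MinK) slows the opening of Kcnq1 and gives the slow current its shape, and its loss or that of Kcnq1 causes long QT syndrome and deafness in humans. In the adult mouse ventricle repolarisation rests mostly on other, faster potassium currents.

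The arrays resembled each other in overall level, with medians of 5.76 to 5.78 in alpha MHC Cre hearts and 5.72 to 5.81 in no Cre hearts. Markers of cardiomyocytes, the cell type expected in the apex, were high in all hearts, with Myh6 at 13.81 to 13.89 in alpha MHC Cre hearts and 13.83 to 13.90 in no Cre hearts. The signal at the 3' end minus that at the 5' end of Actb, a measure that moves with RNA quality, was 0.25 to 0.29 in alpha MHC Cre hearts and 0.30 to 0.41 in no Cre hearts, and that of Gapdh was -0.07 to -0.04 and -0.14 to -0.08 in the same groups. Each separated the groups, in opposite directions, with an exact two-sided permutation p of 0.1, the smallest that 3 against 3 hearts allow, and their part in the results was not tested. The targeted gene Zfpm2 differed by -0.88 on one probe set and by 1.68 on the other, and which exons each of them covers was not established here, so neither is read as a check of the deletion.

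Kcne1, the subunit that defines the slow current, stood far apart between the groups. Its brighter probe set read 10.23, 10.27 and 10.13 in the alpha MHC Cre hearts and 5.91, 5.36 and 6.54 in the no Cre hearts. All alpha MHC Cre hearts lay at least 3.59 above the highest no Cre heart. The means were 10.21 ± 0.07 and 5.94 ± 0.59 (SD, n = 3 each), a difference of 4.27 ± 0.30 (SE). The dimmer probe set read 7.28, 7.10 and 7.53 in the alpha MHC Cre hearts and 3.91, 3.94 and 4.70 in the no Cre hearts, a difference of 3.12 ± 0.26. Both probe sets therefore put every alpha MHC Cre heart above every no Cre heart, and on the dimmer one the gap between the groups was 2.41. Among no Cre hearts, no Cre 3 was the highest on both. All no Cre values of the dimmer probe set lie below 5.16, the mean under which probe sets were left out of the tests.

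The spread of Kcne1 was uneven. On the brighter probe set the alpha MHC Cre hearts spanned 0.14 and the no Cre hearts 1.17. Its SD in no Cre hearts was above that of 98.7% of tested probe sets, while its SD in alpha MHC Cre hearts was above that of only 16.8%. With 16 or 64 added to the unlogged signal the difference on the brighter probe set was 3.94 or 3.30. Leaving out single hearts gave differences from 3.99 to 4.57.

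**Figure D1:**
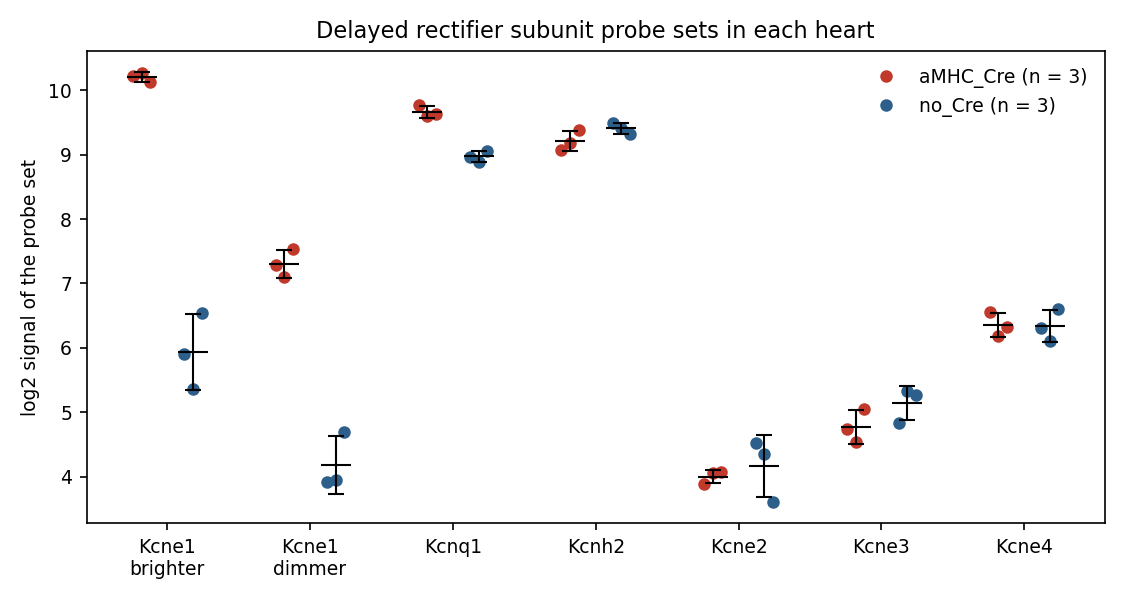
Log2 signal (vertical axis) of the 7 probe sets in each heart, with alpha MHC Cre hearts (aMHC_Cre) in red on the left of each pair and no Cre hearts in blue on the right. Points are hearts, and the black lines are the mean and SD of 3 hearts. Both Kcne1 probe sets and Kcnq1 show groups that do not overlap, while those of Kcnh2, Kcne2, Kcne3 and Kcne4 overlap.

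Kcnq1, which forms the pore that Kcne1 joins, was higher by much less. Its probe set read 9.77, 9.60 and 9.63 in the alpha MHC Cre hearts and 8.97, 8.89 and 9.06 in the no Cre hearts. The groups did not overlap, with a gap of 0.55. The means were 9.67 ± 0.09 and 8.97 ± 0.09 (SD, n = 3 each), and the difference was 0.69 ± 0.10 (SE). The spread within each group was alike, and the difference stayed between 0.64 and 0.74 whichever single heart was left out. On its brighter probe set the difference of Kcne1 exceeded that of Kcnq1 by 3.58 on the log2 scale. The excess was smaller on the dimmer Kcne1 probe set, which differed by 3.12. It was also smaller with 64 added to the unlogged signal, at differences of 3.30 for the brighter Kcne1 probe set and 0.63 for Kcnq1.

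A long RNA, Kcnq1ot1, is transcribed from within Kcnq1 in the opposite direction and is best known for its part in genomic imprinting. It was looked at after the values of Kcnq1 had been seen. Of its 6 probe sets 4 were tested across the array, and they differed by -0.33 to 0.16 with overlapping groups (adjusted p 0.33 to 0.95, limma). The 2 others were too dim to be tested.

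Kcnh2, the pore of the rapid current, read 9.08, 9.19 and 9.38 in the alpha MHC Cre hearts and 9.50, 9.41 and 9.33 in the no Cre hearts. Only alpha MHC Cre 3 reached into the range of the no Cre hearts, by 0.05. The means were 9.22 ± 0.15 and 9.41 ± 0.08 (SD, n = 3 each), a difference of -0.20 ± 0.12 (SE) that ranged from -0.28 to -0.13 as single hearts were left out.

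The other small subunits did not separate the groups. Kcne4, which inhibits several potassium channels including Kcnq1, read 6.56, 6.19 and 6.33 in the alpha MHC Cre hearts and 6.31, 6.11 and 6.60 in the no Cre hearts. Its difference was 0.02 ± 0.17 (SE), and it lay between -0.09 and 0.15 with single hearts left out. Kcne3, which keeps Kcnq1 open in epithelia, read 4.74, 4.53 and 5.05 in the alpha MHC Cre hearts and 4.84, 5.33 and 5.26 in the no Cre hearts, with a difference of -0.37 ± 0.20. The groups overlapped for both genes.

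Kcne2 (MiRP1), which has been studied as a partner of Kcnh2 and of other cardiac channels, lies near Kcne1 on chromosome 16. It read 3.88, 4.05 and 4.07 in the alpha MHC Cre hearts and 4.52, 4.35 and 3.61 in the no Cre hearts. All alpha MHC Cre hearts lay inside the range of the no Cre hearts, and the difference was -0.17 ± 0.26 (SE), with -0.44 to 0.01 when single hearts were left out. With 64 added to the unlogged signal the difference was -0.04. No detection calls were used, so neither Kcne2 nor Kcne3 is called absent.

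**Figure D2:**
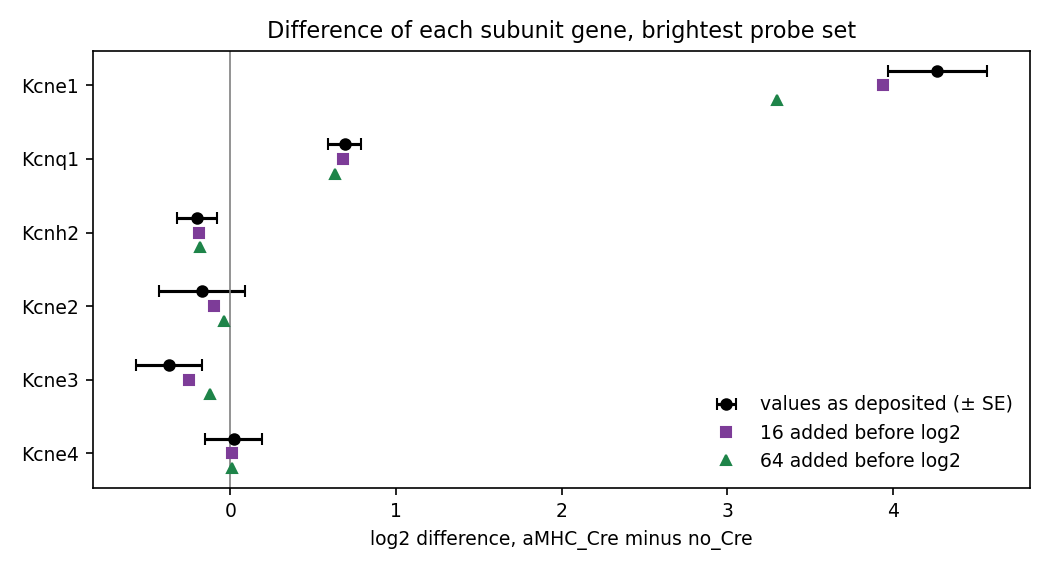
Log2 difference, alpha MHC Cre minus no Cre (horizontal axis), for the brightest probe set of each of the 6 genes. Circles are the values as deposited with SE (n = 3 hearts per group), squares and triangles the values after adding 16 or 64 to the unlogged signal. Kcne1 stays above 3 and Kcnq1 above 0.6 on each scale, while the other genes lie within 0.4 of 0.

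Across the array 27022 probe sets were tested, after leaving out the 40% with the lowest mean over the 6 hearts, which here meant a mean under 5.16. Of the 7 subunit probe sets 5 passed this filter. Kcne2 and Kcne3, with means of 4.08 and 4.96, did not, and the dimmer Kcne1 probe set, with a mean of 5.74, passed only through its level in alpha MHC Cre hearts. In the limma fit of all tested probe sets, 3 subunit probe sets, the 2 of Kcne1 and that of Kcnq1, were past an adjusted p of 0.05, against 5.23% of all tested probe sets. The groups did not overlap for the same 3, against 23.5% of all tested probe sets. Without the filter on dim probe sets those of Kcne1 alone were past the threshold, against 275 of all 45037 probe sets. Nothing is read from any of these counts, since this comparison led to the choice of the genes. Over the tested probe sets the median difference was -0.02 and the median SD 0.15 in alpha MHC Cre hearts and 0.17 in no Cre hearts. By size of difference the brighter Kcne1 probe set ranked 9 from the top, the dimmer one 26 and that of Kcnq1 818.

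**Figure D3:**
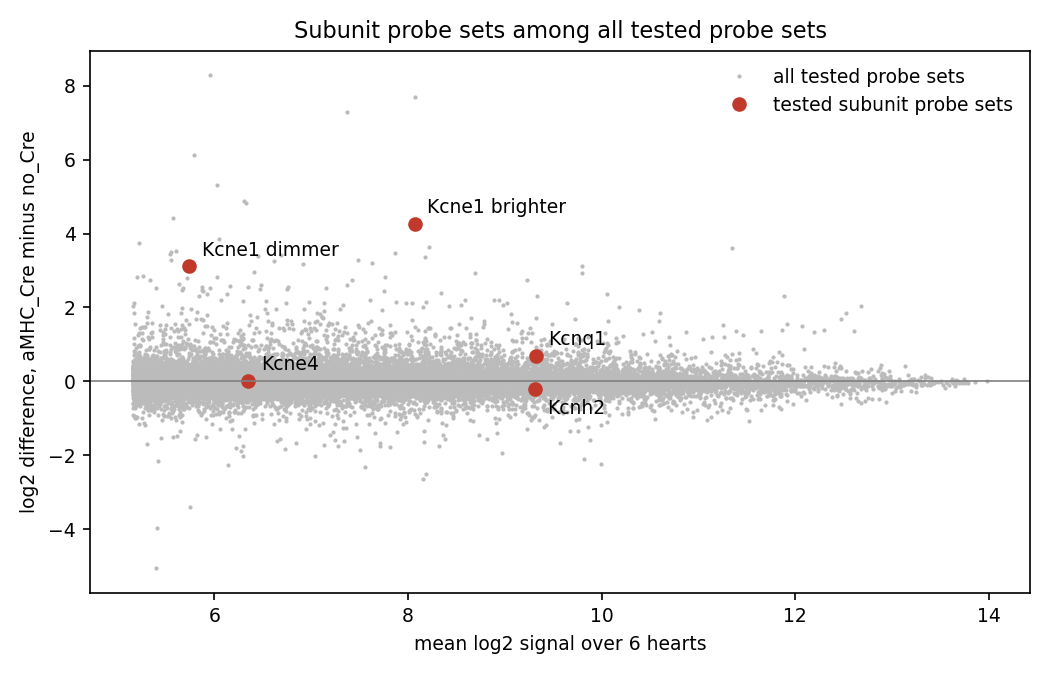
Mean log2 signal over the 6 hearts (horizontal axis) against the log2 difference, alpha MHC Cre minus no Cre (vertical axis), for the 27022 tested probe sets in grey and the 5 tested subunit probe sets in red. Both Kcne1 probe sets lie at the upper edge of the cloud, Kcnq1 at its upper part, and Kcne4 and Kcnh2 within it.

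Promoter windows reaching from 250 bases before to 50 after a start were taken from RefSeq (GRCm38.p6) and held 4 of the 6 genes in 6 windows, namely Kcne2, Kcne3, Kcne4 and Kcnh2. Kcne1 and Kcnq1 had no entry. Because Fog2 acts with GATA factors, the windows were searched for the GATA motif in the spellings AGATAA or else AGATAG, and likewise TGATAA or else TGATAG, on both strands. A match was found in 1 of the 6 windows, against 29.8% of all 32851 windows. It is a window of Kcne3, for a start 163 bases downstream of the outermost start of that gene. The match lies at position -231 relative to this internal start, and the groups overlapped for this gene. A match describes letters and not a site of binding. The window of Kcne3 that holds the match, shown with the match in capitals, and the window of Kcnh2, the pore of the rapid current, which is shown as the one for an internal start 22093 bases downstream of the outermost start of that gene and holds no match, are as follows (5′ to 3′ on the gene's strand).
Kcne3, chr7:100176420-100176719, plus strand: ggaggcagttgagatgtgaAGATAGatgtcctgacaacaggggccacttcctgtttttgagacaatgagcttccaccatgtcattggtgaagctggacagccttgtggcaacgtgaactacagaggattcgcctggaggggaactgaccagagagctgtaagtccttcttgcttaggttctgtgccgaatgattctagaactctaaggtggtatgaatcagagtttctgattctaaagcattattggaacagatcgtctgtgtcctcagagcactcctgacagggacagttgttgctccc
Kcnh2, chr5:24329542-24329841, minus strand: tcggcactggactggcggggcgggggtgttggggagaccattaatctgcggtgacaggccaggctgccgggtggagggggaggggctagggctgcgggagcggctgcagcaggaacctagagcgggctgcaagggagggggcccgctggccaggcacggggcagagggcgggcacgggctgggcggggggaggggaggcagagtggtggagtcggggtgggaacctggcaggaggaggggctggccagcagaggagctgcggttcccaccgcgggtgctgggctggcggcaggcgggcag
The Kcnh2 window has 74.3% G and C and that of Kcne3 48.3%, against a median of 52.7% over all windows.

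Position along the chromosome was not used to choose the genes. The 3 protein-coding genes before and the 3 after each subunit gene in the RefSeq gene order (GRCm38.p6) made a list of 33 neighbours, of which 25 were tested. On the basis of the brightest probe set of each gene, 2 of the 25 rose and 1 fell in the fit of all tested probe sets, against 4.2% of all tested genes called higher and 2.04% called lower. Their median difference was -0.03, against -0.01 over all tested genes. Both genes that rose follow Kcne1 on chromosome 16.

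Clic6, a member of the chloride intracellular channel family and the second gene after Kcne1, read 6.78, 6.74 and 6.80 in the alpha MHC Cre hearts and 5.90, 5.55 and 5.0 in the no Cre hearts. It rose by 1.29 ± 0.20 (SE; limma adjusted p 0.0079), without overlap. Another Clic6 probe set, chosen after its values were seen and too dim on average to be tested, read 7.59, 7.32 and 7.25 in the alpha MHC Cre hearts and 3.26, 1.10 and 2.09 in the no Cre hearts, which lie below the level of the filter, so no fold is given for it. Adding 64 to the unlogged signal reduced the tested difference to 0.66. The call held without each single heart (adjusted p 0.003 to 0.044).

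Rcan1, an inhibitor of calcineurin that lies directly after Kcne1, read 9.53, 9.55 and 9.71 in the alpha MHC Cre hearts and 9.10, 8.95 and 9.17 in the no Cre hearts. It rose by 0.52 ± 0.12 (adjusted p 0.039), but no leave-one-out fit kept that call (adjusted p 0.061 to 0.13). Its other tested probe set differed by 0.36 (adjusted p 0.23). The third gene after Kcne1, the transcription factor Runx1, differed by 0.00 ± 0.19 (adjusted p 1.00), and Smim11 and Fam243 between Kcne2 and Kcne1 differed by -0.03 and -0.36 without passing. The neighbour that fell was Klhl7, an adaptor of a ubiquitin ligase near Kcnh2, which read 9.60, 9.66 and 9.72 in the alpha MHC Cre hearts and 10.30, 10.39 and 10.43 in the no Cre hearts. It fell by 0.72 ± 0.11 (adjusted p 0.0071), and its other probe set differed by -0.85 (adjusted p 0.0045). None of the tested neighbours of Kcnq1, Kcne3 or Kcne4 passed.

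**Figure D4:**
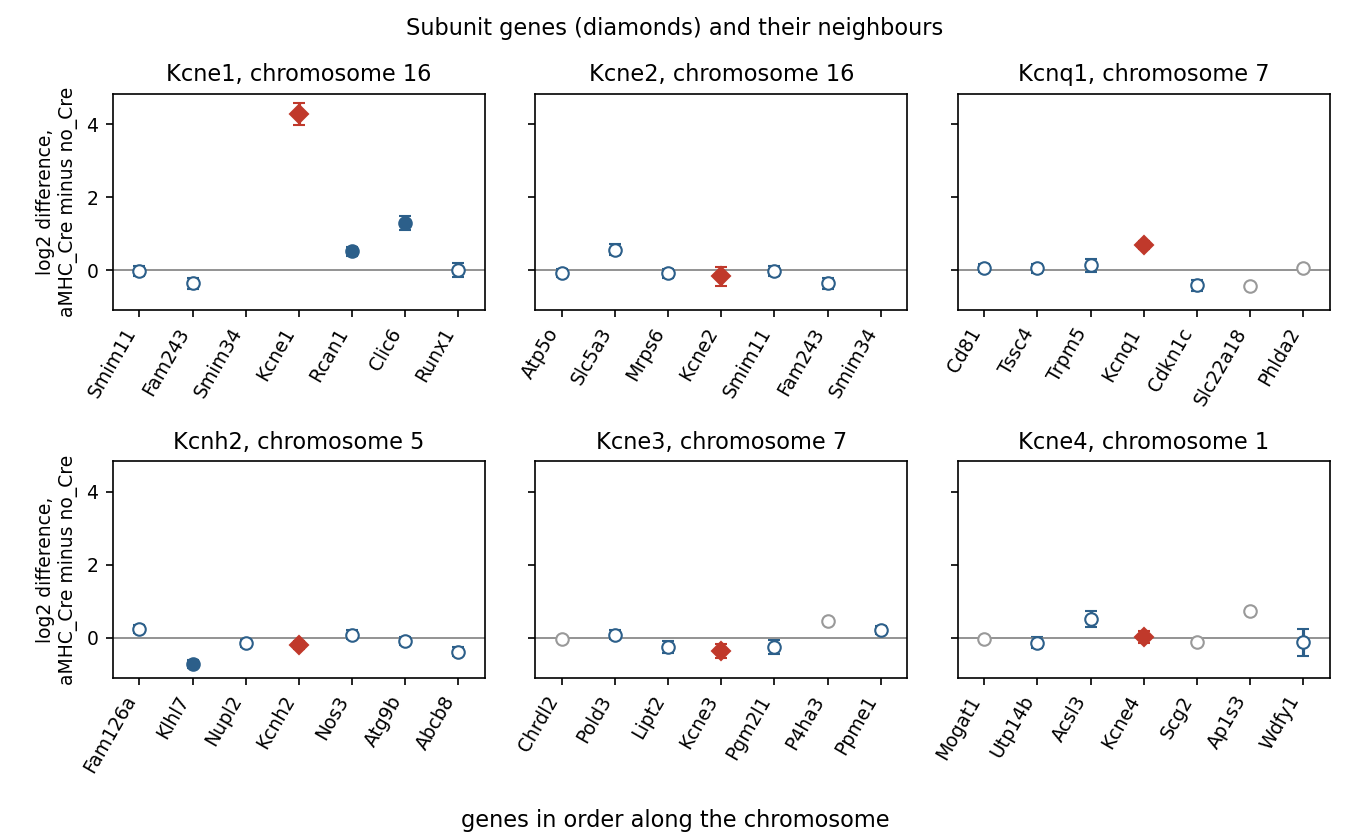
Log2 difference, alpha MHC Cre minus no Cre (vertical axis), of each subunit gene (red diamond) and the 3 protein-coding genes on either side in chromosome order (horizontal axis), by brightest probe set. Error bars are SE, filled blue circles passed the limma test, open blue circles did not, grey circles were too dim to be tested and Smim34 had no named probe set. Rcan1 and Clic6 beside Kcne1 and Klhl7 beside Kcnh2 are the filled circles.

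Further genes of these channels were taken as lists, also with earlier results known. Among 12 paralogs, the other Kcnq and Kcnh pores and Kcne1l (Kcne5), only 3 were tested. None passed in limma, 0 had an unadjusted p under 0.05, and the median difference was -0.16. Kcnh8 differed by -0.30 ± 0.20 (SE, adjusted p 0.49) and Kcnh3 by -0.16 ± 0.14 (adjusted p 0.62). Kcne1l, which was not tested, averaged 3.29 in alpha MHC Cre hearts and 3.25 in no Cre hearts.

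Of 28 regulators of the delayed rectifiers, which include kinase anchors, ubiquitin ligases and the chaperones that fold Kcnh2, 24 were tested and none passed, although 3 had an unadjusted p under 0.05. The median difference was 0.00 and the range -0.47 to 0.56. Akap9, the anchor that ties protein kinase A to Kcnq1, averaged 8.37 in both groups. Slc5a3, the sodium-dependent inositol transporter, differed by 0.56 ± 0.15 (SE, adjusted p 0.074) and passed without no Cre 3 (adjusted p 0.027), with the 60% filter (0.045) and with array weights (0.049). The count of called regulators was 1 under each of these settings and with 64 added, and 2, 1 higher and 1 lower, with trend and robust variances. Pde4d, a cAMP phosphodiesterase, differed by -0.47 ± 0.14 (adjusted p 0.11). Its dimmer probe set, chosen after its values were seen and not tested, read 3.00, 3.09 and 3.27 in the alpha MHC Cre hearts and 5.43, 5.83 and 5.47 in the no Cre hearts.

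Of 12 other channels reported to work with Kcne subunits, 6 were tested, 0 rose and 2 fell, against 2.04% of all tested genes called lower. The median difference was -0.31. Kcnd3 and Kcnd2, pores of the transient outward current, were lower by 0.94 ± 0.13 (SE, adjusted p 0.005) and 0.77 ± 0.15 (adjusted p 0.020) in alpha MHC Cre hearts, and neither passed without the filter on dim probe sets (adjusted p 0.072 and 0.15). Kcnd3 fell on its brightest probe set but differed by 0.02 on another tested one, and the mean over its tested probe sets differed by -0.46 (adjusted p 0.08). Kcnd2 fell on all 3 tested probe sets but lost its call without alpha MHC Cre 2 or any no Cre heart (adjusted p 0.0504 to 0.066). Hcn2, a pacemaker channel, differed by -0.35 ± 0.12 (adjusted p 0.15) and was named after its value was seen.

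In mice Kcne1 is known from atrial and conduction tissue, so markers of these and of other cell types of the apex were read beside it. Fewer cells of a type and less RNA per cell cannot be told apart in such samples. Of 7 atrial markers 5 were tested and 2 rose, against 4.2% of all tested genes called higher. Myl7, an atrial myosin light chain, read 10.72, 11.42 and 10.92 in the alpha MHC Cre hearts and 4.34, 3.39 and 3.42 in the no Cre hearts. It passed the filter only through the alpha MHC Cre hearts, and its difference of 7.30 ± 0.27 (SE) is set against signals below the level of the filter. Kcnj5 rose by 1.11 ± 0.13, while Kcnj3 differed by 0.27, Myl4 by -0.02 and Nr2f2 by 0.06. The summed unlogged signal of the 7 was 4572 to 5464 in alpha MHC Cre hearts and 1966 to 2324 in no Cre hearts, a gap made mostly by Myl7 and Kcnj5. Sln and Bmp10, also typical of atrium, were too dim to be tested, with Sln at 2.89 to 4.01 in alpha MHC Cre hearts and 2.57 to 3.05 in no Cre hearts. Of 12 conduction markers 5 were tested, none passed (limma; 1 had an unadjusted p under 0.05) and all 5 differences were negative, with a summed signal of 1432 to 1677 in alpha MHC Cre hearts and 1604 to 1984 in no Cre hearts. Cacna1g differed by -0.53 ± 0.21 (adjusted p 0.22) and Cntn2 by -0.26 ± 0.15 (adjusted p 0.44), and Hcn4 had no probe set named for it alone.

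Of 7 fibroblast markers 4 rose, again against 4.2% of all tested genes, Col1a2 by 1.28 ± 0.15 (SE), Col1a1 by 1.41 ± 0.21, Lum by 0.74 ± 0.12 and Dpt by 0.55 ± 0.13. The summed signal of the 7 was 16130 to 18160 in alpha MHC Cre hearts and 10650 to 12580 in no Cre hearts. Of 7 endothelial markers 1 rose, Vwf by 1.12 ± 0.17, and the median difference of the 7 was 0.12. Of 6 epithelial markers 2 were tested and 1 rose, Ttr, the thyroxine carrier transthyretin, by 3.17 ± 0.56 (limma adjusted p 0.013). Both counts stand against the same 4.2%. Ttr spanned 2.68 in no Cre hearts, and Epcam, also tested, differed by 0.25 ± 0.14. Among the 4 too dim to be tested, Krt18 averaged 6.76 in alpha MHC Cre hearts and 3.22 in no Cre hearts. Krt8, Krt19 and Cdh1 differed by 0.15, -0.37 and -0.50. None passed among 6 cardiomyocyte, 6 tested smooth muscle and pericyte and 6 macrophage markers (limma; 0, 1 and 1 with an unadjusted p under 0.05). Among these, Ryr2 differed by 0.12 ± 0.11 (adjusted p 0.67) and Tnni3 by -0.10 ± 0.11 (0.72) for cardiomyocytes, Acta2 by 0.80 ± 0.30 (0.20) and Des by 0.16 ± 0.12 (0.54) for smooth muscle and pericytes, and Cd14 by -0.33 ± 0.14 (0.25) and Cd68 by 0.22 ± 0.11 (0.36) for macrophages. Most cardiomyocyte probe sets read close to the array maxima of 13.97 to 14.00, where a difference may be compressed. Their lack of calls therefore does not show that cardiomyocyte content was unchanged. Over all marker lists 8 of 44 tested genes were called, all higher, against 4.2% of all tested genes. Without the filter on dim probe sets 2 of 55 were called. The part of these markers in the level of Kcne1 was not tested.

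The genes whose pattern over the 6 hearts lay closest to that of the brighter Kcne1 probe set were sought among 12324 tested genes, each centred on its own mean, by the Euclidean distance of the log2 values. They were Dazl at 1.14, Ano3 at 1.19, Cdc7 at 1.21, Pgap1 at 1.40 and Tm6sf1 at 1.41, against 1.52 for the dimmer Kcne1 probe set. In no Cre hearts Dazl, Ano3 and Cdc7 averaged 3.34, 3.35 and 4.12, below the filter level of 5.16. These genes passed the filter only through their alpha MHC Cre hearts. Dazl, an RNA-binding protein of germ cells, read 7.12, 7.10 and 7.04 in the alpha MHC Cre hearts and 3.12, 3.51 and 3.40 in the no Cre hearts. Its no Cre hearts spanned 0.39, against 1.17 for Kcne1. Tm6sf1, a multi-pass membrane protein, read 9.79, 9.50 and 10.25 in the alpha MHC Cre hearts and 6.31, 6.37 and 6.79 in the no Cre hearts, and as for Kcne1 no Cre 3 was the highest of its group. By construction this distance is small for genes with a difference of similar size.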

How the data were processed

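The authors deposited 1 log2 signal per probe set and array, made with PLIER, a probe set summary method, per the submitters' processing notes. No source used here gives its version, how background was handled or whether arrays were normalized to each other, and base 2 was inferred from maxima of 13.97 to 14.00 per array. The table holds 45101 probe sets, 64 of them controls, and 749 to 902 of the others read below 0 per array. The 6 arrays limit the precision. The labels call the hearts biological replicates.

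Tests used limma (version 3.58.1, under R 4.3.3) with group as the only term and moderated two-sided p-values, with Benjamini-Hochberg adjustment over the 27022 tested probe sets. Array medians differed by at most 0.1, so no normalization was added. SE of the subunits come from the same model fitted without the filter on dim probe sets, since 2 of their probe sets were not tested, and all other SE from the fit of tested probe sets. Gene names came from the platform annotation: 34945 probe sets have 1 symbol, 932 several and 9160 none. A gene was represented by its brightest probe set. Named genes are the 6 subunits, up to 4 called genes per list with the smallest adjusted p (2 as values if none was called), every called neighbour and the 5 genes closest to Kcne1. Outside this rule, Zfpm2, Kcnq1ot1, Kcne1l, Akap9, Hcn2, Hcn4, Myh6, Kcnj3, Myl4, Nr2f2, Sln, Bmp10, Runx1, Smim11 and Fam243 are named as values and were chosen after their values were seen. Krt8, Krt18, Krt19, Epcam and Cdh1 were likewise named after their values were seen. Members and lists were chosen with earlier results of these data known. The fit was tested on simulated data. No other value columns were found. Alternatives were quantile normalization, median centring, no filter or a 60% filter, 16 or 64 added, trend and robust variances, array weights and a replicate block. Further ones were the mean over probe sets, a 2-fold rule and leaving out each heart. The tested probe sets were kept the same except for the filters. For the mean over probe sets they were averaged by gene, and p-values were adjusted over genes.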

Additional observations from a re-analysis of the deposited data

How the results depend on the processing

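The differences of all 6 subunit genes moved by less than 1 SD between replicates under the alternatives run, except that of Kcne1, at 3.30 with 64 added and 3.70 as the mean over both probe sets. Leaving out single hearts gave 3.99 to 4.57 for Kcne1, 0.64 to 0.74 for Kcnq1, -0.28 to -0.13 for Kcnh2, -0.44 to 0.01 for Kcne2, -0.52 to -0.25 for Kcne3 and -0.09 to 0.15 for Kcne4. The differences of the dim Kcne2 and of Kcne4 thus changed sign as single hearts were left out. Those of Kcnh2 and Kcne3 kept their sign, but their groups overlapped, so none of these signs is settled. The count of called probe sets, 1412, was 275 without a filter, 474 with a 2-fold rule, and 600 (without alpha MHC Cre 2) to 1075 without single hearts. Of 57 tested genes of the lists 5 were called, 2 higher and 3 lower, against 4.2% of all tested genes called higher and 2.04% called lower. The count was 0 of 72 in limma without a filter (12 with an unadjusted p under 0.05). It was 1 with a 2-fold rule and 3 to 4 without single hearts. Of 44 tested markers 8 were called, all higher, against 4.2% of all tested genes. The count was 2 of 55 without a filter and 6 to 7 without single hearts. With the replicate number as a block 909 probe sets were called, and Rcan1 lost its call (adjusted p 0.072). The same-numbered hearts correlated in their deviations at -0.06, 0.21 and -0.19, and not every heart correlated best with its own number. The highest value was 0.27 for alpha MHC Cre 1, with no Cre 3, and 0.19 for alpha MHC Cre 3, with no Cre 1. With so few hearts these values do not settle whether hearts were paired or shared a batch. Without a filter Clic6 (adjusted p 0.12), Klhl7 (0.055), Rcan1 (0.15), Kcnd3 (0.072) and Kcnd2 (0.15) all lost their calls, and as the mean over tested probe sets Kcnd3 (-0.46, 0.08) and Rcan1 (0.44, 0.061) did. Dim signals limit Kcne2 and Kcne3.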
